A study of Rattus norvegicus with 16 samples.

Results

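A set of 10 members of the ADAMTS family of secreted metalloproteinases, the aggrecanases and their closest relatives, were followed in rat knee tissue during MIA-induced osteoarthritis. The genes were Adamts1, Adamts4, Adamts5, Adamts6, Adamts7, Adamts8, Adamts9, Adamts12, Adamts15 and Adamts17, taken by symbol from the platform annotation where a probe set carried exactly 1 symbol, with the brightest probe set standing for a gene. A probe set was found for 8 of the 10 genes, 1 probe set each, among 36685 probe sets on the array, and all 8 lay above the median brightness of the array (log2 signal of 6.62). No probe set with exactly 1 symbol was annotated to Adamts6 or Adamts8, which were not analysed here. Of the 8 measured transcripts, Adamts1, Adamts4 and Adamts15 were upregulated at days 2, 14 and 28, Adamts7 was upregulated at days 14 and 28, Adamts12 and Adamts17 were downregulated at day 2 alone, Adamts9 was downregulated at day 28 alone, and no difference was called for Adamts5. The day 2 call of Adamts15 and the day 28 call of Adamts9 depended on single arrays and on the processing settings, as described with their values.

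The arrays (Affymetrix Rat Gene 2.0 ST) held RNA from the knees of male Wistar rats in 4 groups, with 4 arrays in each. Intact animals, labelled day 0, were the controls, and the other groups were killed 2, 14 or 28 days after 3 mg of MIA was given into the joint. MIA (monosodium iodoacetate) blocks glycolysis and kills chondrocytes. The methods describe pools of RNA from 2 animals, whereas the labels give a single animal number for each array, so whether an array stands for 1 rat or for 2 is not settled and n counts arrays. Per the methods the dissected tissue took in meniscus, tibial and femoral articular cartilage and small pieces of capsule and bone. No age was given in the labels, no saline-injected group was measured, and a single intact group served all 3 days, so effects of injection, age and elapsed time cannot be told apart from MIA.

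ADAMTS proteases are secreted as inactive precursors, activated by proprotein convertases, and bind the pericellular and interterritorial matrix through thrombospondin repeats. Aggrecanases among them cut the core protein of aggrecan, the proteoglycan that gives cartilage its compressive stiffness, and several also cut versican. They are held in check by TIMP3 and by uptake through the receptor LRP1, and in cultured cartilage inflammatory cytokines raise the expression of some members and not of others.

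Promoter sequences are shown for 4 members, since Adamts1 and Adamts4 were upregulated on each day and Adamts12 and Adamts17 were downregulated on day 2 alone. Windows of 250 bases before the transcription start were taken from RefSeq on build GRCr8, a reference of another rat strain than the Wistar animals measured. Such a window was held for 7 of the 10 genes (Adamts1, Adamts4, Adamts6, Adamts7, Adamts9, Adamts12 and Adamts17). The sequences run 5′ to 3′ on the strand of the gene and end at the base before its start. Capitals mark every match, on either strand, to one of 6 motifs described after them.
Adamts1, chr11:38427385-38427634, minus strand: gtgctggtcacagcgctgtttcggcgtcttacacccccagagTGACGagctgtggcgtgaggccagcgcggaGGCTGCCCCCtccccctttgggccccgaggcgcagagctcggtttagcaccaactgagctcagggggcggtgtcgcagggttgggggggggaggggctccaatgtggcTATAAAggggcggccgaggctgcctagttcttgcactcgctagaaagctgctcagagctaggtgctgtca
Adamts4, chr13:86202761-86203010, plus strand: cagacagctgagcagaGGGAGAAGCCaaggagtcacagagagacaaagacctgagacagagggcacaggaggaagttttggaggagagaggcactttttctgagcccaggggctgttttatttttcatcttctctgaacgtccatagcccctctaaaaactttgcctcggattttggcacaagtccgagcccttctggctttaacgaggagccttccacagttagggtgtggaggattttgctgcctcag
Adamts12, chr2:61759737-61759986, plus strand: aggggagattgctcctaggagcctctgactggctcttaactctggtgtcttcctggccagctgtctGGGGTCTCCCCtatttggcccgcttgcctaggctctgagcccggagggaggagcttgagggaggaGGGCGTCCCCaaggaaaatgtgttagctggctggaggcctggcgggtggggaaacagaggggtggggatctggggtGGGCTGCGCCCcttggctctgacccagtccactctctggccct
Adamts17, chr1:129855812-129856061, plus strand, the first of 2 starts listed: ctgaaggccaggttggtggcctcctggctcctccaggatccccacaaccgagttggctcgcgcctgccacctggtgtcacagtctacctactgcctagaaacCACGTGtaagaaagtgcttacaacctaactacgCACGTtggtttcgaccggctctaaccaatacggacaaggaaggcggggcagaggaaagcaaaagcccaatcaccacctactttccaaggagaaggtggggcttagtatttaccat

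A loose form of the NF-kB motif, GGG followed after any 5 bases by CC, lay in 5 of the 7 windows, those of Adamts1, Adamts4, Adamts7, Adamts9 and Adamts12, and in 43.5% of 27457 rat windows of the same length. TATAAA, the TATA box, lay in 2 windows, 70 to 65 bases before the start of Adamts1 and, on the opposite strand, 18 to 13 bases before that of Adamts7, and in 13.1% of all windows. ACGTG, the core of the site of hypoxia-inducible factors, was found in Adamts17 alone of the 7, with a palindromic CACGTG 148 to 143 bases before the start and a match on the opposite strand 115 to 111 bases before it, and 16.9% of all windows held it. TGACG, the shared part of sites for cyclic AMP-responsive factors, was found in Adamts1 alone, 208 to 204 bases before the start, and in 19% of all windows. TGANTCA, the AP-1 site, lay in 0 of the 7 windows and in 6.36% of all windows. TGTGGT, a RUNX site, also lay in 0 of the 7, and in 14.1% of all windows. The windows of Adamts1 and Adamts4 thus shared only the loose pattern, and those of Adamts12 and Adamts17 had none of the 6 in common. The GC content was 65.2% for Adamts1, 51.2% for Adamts4, 63.6% for Adamts12 and 54.4% for Adamts17, against a median of 52% over all windows. A match is a description of letters and not a binding site.

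mRNA abundance is given as the deposited log2 signal, on which a difference of 1 is a 2-fold change, and levels of different probe sets cannot be compared with each other. Values ran from 1.6 to 13.84, array medians from 6.57 to 6.69, and correlations between arrays from 0.959 to 0.992. A difference was called where limma gave a Benjamini-Hochberg adjusted p under 0.05 over all probe sets, and the p-values measure the spread between these arrays. All comparisons with intact share the same 4 intact arrays. The levels of cell type markers moved with the groups. In whole tissue, fewer cells of a type and less RNA per cell cannot be told apart. Chondrocyte markers fell for 8 of 13 genes at day 2, 7 at day 14 and 3 at day 28, with a list mean between 8.75 and 9.32 in intact knees, between 6.64 and 8.23 (day 2), between 7.09 and 7.81 (day 14) and between 7.77 and 8.70 (day 28). Macrophage markers rose for 8 of 11 genes at day 2, for 2 at day 14 and for 3 at day 28, where 1 and 2 others fell, with a list mean between 9.46 and 9.70 in intact knees, between 10.30 and 10.63 (day 2), between 9.43 and 9.78 (day 14) and between 9.18 and 9.48 (day 28). Adipocyte markers fell for 9 of 10 genes at day 2 and all 10 at days 14 and 28, with a list mean between 9.61 and 10.50 in intact knees, between 8.84 and 9.22 (day 2), between 8.26 and 8.71 (day 14) and between 6.91 and 7.36 (day 28), and the tissue labelled cartilage thus also gave adipocyte signal. None of 11 skeletal muscle markers was called against intact on any day, but the list mean spread from 7.42 to 11.19 in intact knees, 7.06 to 9.56 on day 2, 9.68 to 12.32 on day 14 and 6.74 to 9.77 on day 28. Fibroblast and synovial lining markers rose for 1 and fell for 5 of 10 genes at day 2, rose for 3 and fell for 2 at day 14, and rose for 2 and fell for 2 at day 28, with a list mean between 11.14 and 11.22 in intact knees, between 10.39 and 10.73 (day 2), between 11.04 and 11.38 (day 14) and between 10.96 and 11.16 (day 28). Smooth muscle and pericyte markers fell for 4 of 6 genes at day 2, and 1 rose and 1 fell on each later day, with a list mean between 10.31 and 10.58 in intact knees, between 9.87 and 10.05 (day 2), between 10.38 and 10.77 (day 14) and between 10.31 and 10.56 (day 28). Of 3 osteoclast markers, 0 were called at day 2 and 2 rose at day 14 and at day 28, with a list mean between 7.78 and 8.34 in intact knees, between 8.09 and 8.83 (day 2), between 8.80 and 9.31 (day 14) and between 8.92 and 9.43 (day 28). Array signals have no true 0. Unless a value is given, the part of the cell mixture in the results was not tested.

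**Figure D1:**
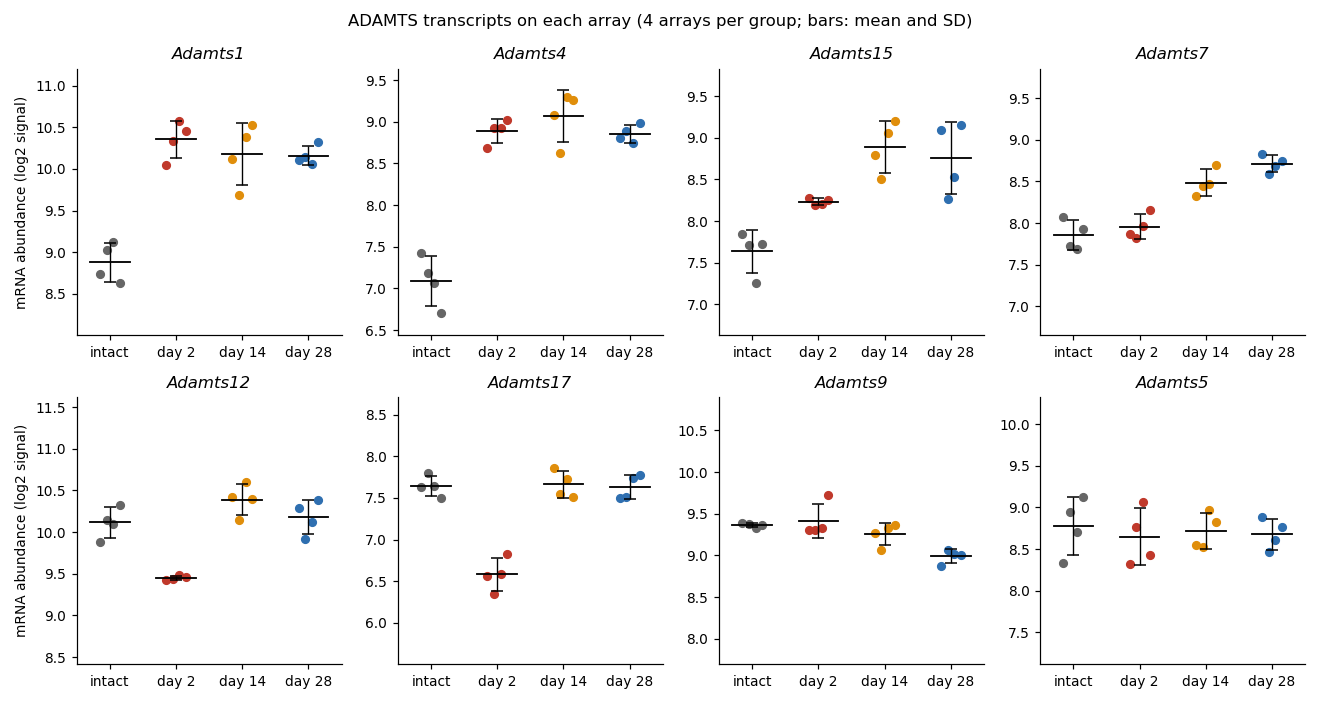
Log2 signal (vertical axis) of the 8 measured ADAMTS transcripts on each array of intact, day 2, day 14 and day 28 knees (horizontal axis). Points are arrays, 4 per group, and bars give the mean and SD. All arrays of Adamts1, Adamts4 and Adamts15 after MIA lie above all intact arrays, and the day 2 arrays of Adamts12 and Adamts17 lie below all others.

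At day 2, 3 of the 8 measured members were upregulated, against 14.7% of all probe sets, and 2 were downregulated, against 11.2%. At day 14, 4 were upregulated, against 9.13% of all probe sets, and 0 were downregulated, against 6.01%. At day 28, 4 were upregulated, against 7.76%, and 1 was downregulated, against 6.45%. The called members made up a larger share upward than the array as a whole on each of the 3 days. These 8 genes were chosen with earlier results known and lay above the median brightness, whereas 17599 of the 36685 probe sets carried no symbol. The shares thus compare unlike sets, and no conclusion is drawn from them. Changes over 2-fold were upward in 2 members at day 2 and in 3 members on each later day, whereas 1.8%, 1.03% and 0.594% of all probe sets passed the same limits on days 2, 14 and 28. A downward change of that size was seen in 1 member at day 2 and in 0 at days 14 and 28, where 1.34%, 0.94% and 1.47% of probe sets passed. All arrays of a day lay on one side of all intact arrays in 5 members (day 2), 4 members (day 14) and 5 members (day 28), compared with 27%, 18.4% and 18.2% of all probe sets. The moderated F-test over the 3 days called 7 of the 8, all but Adamts5, and 31% of all probe sets.

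Among the aggrecanases, Adamts4, a principal aggrecan-cleaving enzyme of cartilage, had the largest differences of the members measured. Its signal was 7.42, 7.18, 7.07 and 6.70 on the intact arrays, 8.69, 8.93, 8.92 and 9.02 at day 2, and 9.08, 8.62, 9.30 and 9.26 at day 14. At day 28 the values were 8.81, 8.89, 8.74 and 8.99. Every array after MIA lay above every intact array, and the lowest array of each day was 1.27, 1.21 and 1.33 above the highest intact array at days 2, 14 and 28. Adamts4 rose by 1.80 at day 2 (3.48-fold, SE 0.16, adjusted p = 1.3e-06), by 1.97 at day 14 (3.93-fold, adjusted p = 3.7e-06) and by 1.77 at day 28 (3.41-fold, adjusted p = 4.6e-06). Day 14 differed from day 2 by 0.18 (95% interval -0.16 to 0.51) and day 28 from day 14 by -0.20 (-0.54 to 0.13), and neither difference was called. The rise was thus already present at the earliest day sampled.

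Adamts1, which cleaves both aggrecan and versican, had a similar course. Its signal was 8.74, 9.03, 9.12 and 8.63 on the intact arrays, 10.05, 10.33, 10.57 and 10.46 at day 2, and 10.12, 9.69, 10.38 and 10.53 at day 14. The arrays of day 28 gave 10.11, 10.14, 10.06 and 10.32. The arrays after MIA and the intact arrays did not overlap, with the narrowest gap, 0.57, at day 14, where replicate 2 was low at 9.69. Adamts1 rose by 1.48 at day 2 (2.78-fold, SE 0.17, adjusted p = 1.4e-05), by 1.30 at day 14 (2.46-fold, adjusted p = 0.00015) and by 1.28 at day 28 (2.43-fold, adjusted p = 0.00013). No difference between days was called, the largest difference being that of day 28 from day 2, -0.20 (95% interval -0.56 to 0.16, adjusted p = 0.44).

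Adamts5, the aggrecanase whose loss protects mouse cartilage in models of osteoarthritis, lies next to Adamts1 on rat chromosome 11, with 0 protein-coding genes starting between them in the reference annotation. Its signal was 8.33, 8.95, 8.71 and 9.13 on the intact arrays, 8.32, 8.77, 9.07 and 8.43 at day 2, and 8.55, 8.53, 8.97 and 8.82 at day 14. On the day 28 arrays it was 8.89, 8.46, 8.61 and 8.76. All 4 groups overlapped. The difference from intact was -0.13 at day 2 (95% interval -0.53 to 0.26, adjusted p = 0.64), -0.06 at day 14 (-0.45 to 0.34, adjusted p = 0.87) and -0.10 at day 28 (-0.49 to 0.30, adjusted p = 0.82). The intervals reach down to -0.53 and up to 0.34, and all 3 lie below the interval of Adamts1 on the same day, whose lower ends were 1.12, 0.94 and 0.92. The intact arrays themselves spread over 0.80 for Adamts5.

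Adamts15, which cuts versican and aggrecan, was above intact on all 3 days. Its signal was 7.84, 7.71, 7.26 and 7.73 on the intact arrays, 8.28, 8.19, 8.21 and 8.25 at day 2, and 8.79, 8.50, 9.06 and 9.20 at day 14. At day 28 the values were 9.09, 8.27, 8.53 and 9.15. Every array after MIA exceeded every intact array, the day 2 arrays lay within 0.09 of each other, and the day 28 arrays fell into a higher and a lower pair. Adamts15 rose by 0.60 at day 2 (1.51-fold, SE 0.20, adjusted p = 0.035), by 1.25 at day 14 (2.38-fold, adjusted p = 0.00057) and by 1.12 at day 28 (2.18-fold, adjusted p = 0.0012). The difference of day 14 from day 2, 0.65, was called (adjusted p = 0.035), but the call was lost in 11 of 27 alternatives, 7 of which left out a single array (any 1 of day 2, or replicate 1, 3 or 4 of day 14). The difference of day 28 from day 2, 0.53, was not called (adjusted p = 0.068). The day 2 call was lost without intact replicate 3 (0.47) and on leaving out intact replicate 4 or any 1 of the day 2 arrays. It was also lost with cyclic loess normalisation, the methods' t-test, the skeletal muscle covariate, and without the 4 arrays with the highest skeletal muscle signal. Its adjusted p was 0.01 to 0.16 over 27 alternatives, 17 of which kept the call. The day 28 call was lost when the mean of the marrow markers was added to the model (0.65, adjusted p = 0.093) and with the methods' t-test after Benjamini-Hochberg adjustment, and 25 of 27 alternatives kept it. Those 12 markers, of which 8 fell at day 28, had a list mean of 6.68 to 9.12 at day 28 against 9.33 to 9.47 in intact knees, with 8.90 to 9.44 at day 2 and 7.26 to 9.62 at day 14.

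Adamts9, a versican- and aggrecan-cleaving protease, was the member that fell late. Its signal was 9.39, 9.38, 9.33 and 9.36 on the intact arrays, 9.30, 9.31, 9.33 and 9.72 at day 2, and 9.27, 9.07, 9.33 and 9.36 at day 14. The arrays of day 28 gave 8.87, 9.07, 9.02 and 9.00. The intact arrays lay within 0.06 of each other, all day 28 arrays lay below them, and replicate 4 of day 2 stood above every other array. Adamts9 fell by 0.38 at day 28 (1.3-fold, SE 0.097, adjusted p = 0.016) and was lower at day 28 than at day 2 by 0.42 (adjusted p = 0.0048). The differences from intact at day 2, 0.05, and day 14, -0.11, were not called (adjusted p = 0.75 and 0.51). The day 28 call was lost without MIA day 28 replicate 1 (-0.34, adjusted p = 0.058), with the marrow markers in the model (-0.43, adjusted p = 0.098) and without the 4 arrays with the highest skeletal muscle signal (-0.38, adjusted p = 0.073).

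**Figure D2:**
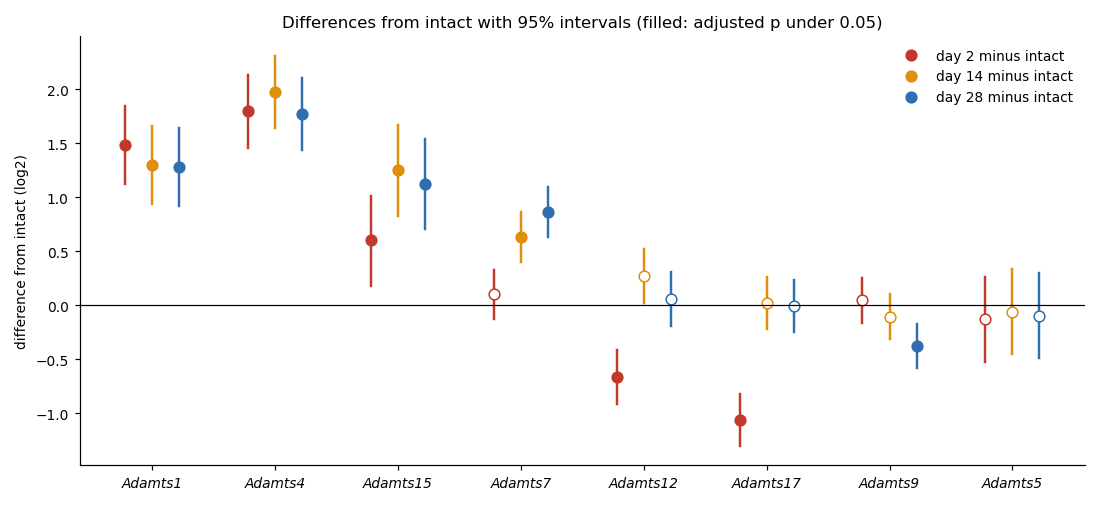
Difference in log2 signal from intact knees (vertical axis) for each measured member at days 2, 14 and 28 after MIA (colours, left to right within a gene), with 95% intervals from limma. Filled points have an adjusted p under 0.05. Adamts4 has the largest differences, up to 1.97 at day 14, Adamts17 the lowest, -1.06 at day 2, and the intervals of Adamts5 include 0 on all days.

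Adamts7 and Adamts12, a closely related pair that bind and degrade cartilage oligomeric matrix protein (COMP), moved on different days. The signal of Adamts7 was 8.07, 7.73, 7.69 and 7.93 on the intact arrays, 7.87, 7.82, 7.97 and 8.16 at day 2, and 8.32, 8.45, 8.47 and 8.70 at day 14. On the day 28 arrays it was 8.83, 8.59, 8.69 and 8.74. The day 2 arrays overlapped the intact arrays, and all arrays of days 14 and 28 lay above both groups. Adamts7 rose by 0.63 at day 14 (1.55-fold, SE 0.11, adjusted p = 0.0011) and by 0.86 at day 28 (1.81-fold, adjusted p = 9.3e-05), against a difference of 0.10 at day 2 (adjusted p = 0.54). It was higher at day 14 than at day 2 by 0.53 (adjusted p = 0.0029) and higher at day 28 than at day 2 by 0.76 (adjusted p = 0.00011), while days 28 and 14 differed by 0.23 (adjusted p = 0.45). Without the 4 arrays with the highest skeletal muscle signal the difference at day 14 was 0.51 and no longer called (adjusted p = 0.058). On days 14 and 28, 2 of 3 osteoclast markers were also called higher. Of 10 fibroblast and synovial lining markers, 3 rose at day 14 and 2 at day 28, and 2 fell on each day. Of 6 smooth muscle and pericyte markers, 1 rose and 1 fell on each day. The part of these lists in the rise of Adamts7 was not tested.

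The signal of Adamts12 was 9.88, 10.15, 10.10 and 10.33 on the intact arrays, 9.43, 9.44, 9.48 and 9.46 at day 2, and 10.42, 10.14, 10.60 and 10.40 at day 14. At day 28 the values were 10.29, 9.92, 10.12 and 10.38. The day 2 arrays lay within 0.05 of each other and below all other arrays, and the day 14 and day 28 arrays overlapped the intact arrays. Adamts12 fell by 0.66 at day 2 (1.58-fold, SE 0.12, adjusted p = 0.00063). The differences at day 14, 0.27 (adjusted p = 0.14), and at day 28, 0.06 (adjusted p = 0.82), were not called. It was higher at day 14 than at day 2 by 0.94 (adjusted p = 5.7e-05) and higher at day 28 than at day 2 by 0.73 (adjusted p = 0.00033). No probe set with exactly 1 symbol was annotated to Comp, which was not analysed here.

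Adamts17, whose loss in humans causes a connective tissue syndrome with short stature and eye lens defects, also fell early. Its signal was 7.63, 7.80, 7.64 and 7.50 on the intact arrays, 6.56, 6.35, 6.59 and 6.83 at day 2, and 7.86, 7.55, 7.73 and 7.51 at day 14. The arrays of day 28 gave 7.50, 7.51, 7.74 and 7.77. The highest day 2 array lay 0.67 below the lowest intact array, and the other 3 groups overlapped. The day 2 mean, 6.58, lay just below the median brightness of the array (6.62). Adamts17 fell by 1.06 at day 2 (2.08-fold, SE 0.11, adjusted p = 8.3e-06), and was higher than at day 2 by 1.08 at day 14 (adjusted p = 1.4e-05) and by 1.05 at day 28 (adjusted p = 8.3e-06). Against intact, it differed by 0.02 at day 14 (95% interval -0.22 to 0.26) and by -0.01 at day 28 (-0.25 to 0.23). The day 2 falls of Adamts12 and Adamts17 coincided with the highest macrophage list means and with the lowest means of the fibroblast and smooth muscle lists. The chondrocyte list means lay below all intact arrays (8.75 to 9.32) at day 2 (6.64 to 8.23), day 14 (7.09 to 7.81) and day 28 (7.77 to 8.70). The part of these lists in the falls was not tested.

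Between days, 4 members were higher at day 14 than at day 2 (Adamts7, Adamts12, Adamts15 and Adamts17), against 6.71% of all probe sets, and 0 were lower, against 7.83%. Without Adamts15, whose call was lost in 11 of 27 alternatives, 3 remained, and these were called in all 27. At day 28 compared with day 2, 3 were higher (Adamts7, Adamts12 and Adamts17), against 10.4%, and 1 was lower (Adamts9), against 12.2%. Between day 28 and day 14, 0 members were called higher and 0 lower, where 0.188% and 0.273% of all probe sets were. The order of the group means was intact, day 28, day 14, day 2 for Adamts1, and intact, day 28, day 2, day 14 for Adamts4, with only the step above intact called. For Adamts7 it was intact, day 2, day 14, day 28, where only the step from day 2 to day 14 was called between neighbours. For Adamts12 it was day 2, intact, day 28, day 14 and for Adamts17 day 2, day 28, intact, day 14, with only the step above day 2 called in each. For Adamts15 it was intact, day 2, day 28, day 14, with only the step from intact to day 2 called. For Adamts9, day 28, day 14, intact, day 2, and for Adamts5, day 2, day 28, day 14, intact, no step between neighbours was called.

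The measured members varied together on some arrays. Replicate 2 of day 14 was the lowest of its group in 6 of the 8 members, with a mean deviation from the group means of -0.26. Its skeletal muscle list mean was 10.53 and its marrow list mean 9.62, against marrow means of 7.26 to 8.29 on the other day 14 arrays. Replicate 3 of day 14 was the lowest in 0 members and deviated by 0.15, with a muscle mean of 12.32 and a marrow mean of 8.29. Replicate 2 of day 28 was the lowest of its group in 4 members and deviated by -0.14, with a marrow mean of 9.12. The part of muscle or marrow in these deviations was not tested. Replicate 4 of day 28 was the highest of its group in 5 members and replicate 1 of day 2 the lowest in 5. After centring on the intact mean, the root mean square difference over the 16 arrays was smallest for Adamts12 and Adamts17 (0.296), followed by Adamts5 and Adamts9 (0.328). It was 0.467 for Adamts7 and Adamts15 and 0.473 for Adamts1 and Adamts4. This difference depends on the size of the changes as well as on their course, so members that changed little come out close. The difference was largest for Adamts4 and Adamts17, at 1.96. The same measure over 18165 other genes and 16 arrays placed Hpgd (0.367), Mmp3 (0.406) and Rgs1 (0.41) closest to Adamts4, and Mir21 (0.255), Steap1 (0.272) and Masp1 (0.275) closest to Adamts1. Closest to Adamts15 were Tubb3 (0.172), Slc47a1 (0.196) and the versican gene Vcan (0.209), and closest to Adamts17 were Pdgfd (0.156), Apol9a (0.156) and Sh3d19 (0.165).

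Of the remaining family, the procollagen N-proteinases, which trim fibrillar procollagens, were measured for all 3 genes. At day 2, 0 rose and 2 fell, and at days 14 and 28 the same 2 genes rose, with median differences of -0.36, 0.40 and 0.45 at days 2, 14 and 28 against -0.047, -0.028 and 0.009 over all probe sets. Adamts2 had a mean of 9.52 ± 0.089 at day 2 against 10.32 ± 0.095 in intact knees (SD, n = 4 arrays each), a fall by 0.80 (adjusted p = 8.8e-06), and was higher than intact by 0.40 at day 14 (adjusted p = 0.006) and by 0.45 at day 28 (adjusted p = 0.0026). Adamts14 fell by 0.36 at day 2 (adjusted p = 0.045) and rose by 0.72 at day 14 (adjusted p = 0.0012) and by 1.02 at day 28 (2.03-fold, adjusted p = 7e-05). Both were thus below intact early and above it late, whereas no late rise was called for Adamts12 or Adamts17. Of 6 other ADAMTS genes, 3 were measured, and 0 rose on any day (medians -0.49, -0.23 and -0.17). Adamts19, the closest relative of Adamts17, fell by 1.12, 0.70 and 0.88 at days 2, 14 and 28 (adjusted p = 3.4e-05, 0.0038 and 7e-04). Its signal was dim, with means of 5.63, 6.05 and 5.87 on those days and 6.75 in intact knees. The median brightness of the array was 6.62. Adamts10, which acts on fibrillin microfibrils, fell by 0.49 at day 2 (adjusted p = 0.00012) and 0.23 at day 14 (adjusted p = 0.044).

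The ADAMTS-like proteins resemble the family in their ancillary domains but lack the protease. Of 7 listed, 6 were measured, of which 1 rose and 5 fell at day 2, 0 were called at day 14, and 1 rose and 1 fell at day 28 (medians -0.61, -0.06 and -0.02). Adamtsl4, a fibrillin-binding protein, fell by 1.26 at day 2 (2.4-fold, adjusted p = 3.5e-06), Thsd4, also fibrillin-binding, by 1.05 (adjusted p = 2e-05) and Adamtsl5 by 0.84 (adjusted p = 7.8e-07). At day 14 their differences from intact were -0.04, -0.10 and -0.07, and at day 28 Thsd4 was above intact by 0.46 (adjusted p = 0.021). Adamtsl1 was the member of the list that rose at day 2, by 0.48 (adjusted p = 0.034). A fall at day 2 was thus called for 2 of the 8 measured members, 2 of 3 procollagen N-proteinases, 2 of 3 other ADAMTS genes and 5 of 6 ADAMTS-like genes. Of all probe sets, 11.2% fell on that day. The lists are short and were chosen with earlier results known, so these shares compare unlike sets and no conclusion is drawn from them.

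**Figure D3:**
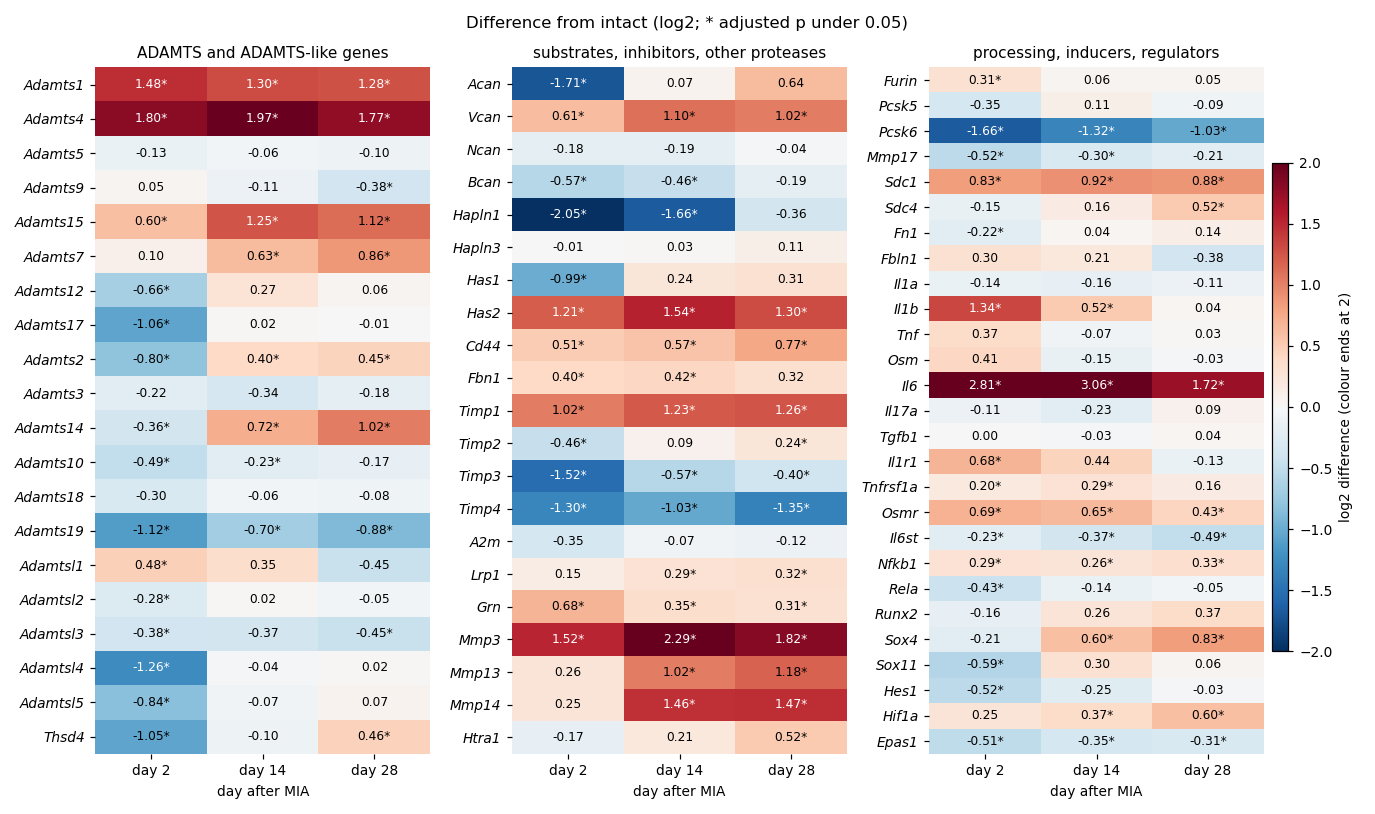
Difference in log2 signal from intact knees at days 2, 14 and 28 (columns) for the ADAMTS family and for genes that ADAMTS proteases act on or that act on them (rows). Red is higher and blue lower than intact, the colour scale ends at 2, and an asterisk marks an adjusted p under 0.05. The day 2 column of the ADAMTS-like genes is mostly blue, with Adamtsl4 at -1.26, and Timp3, Timp4 and Pcsk6 are blue on all 3 days.

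Among the substrates and their binding partners, 10 of 12 genes were measured, of which 4 rose and 4 fell at day 2, 4 rose and 2 fell at day 14, and 3 rose and 0 fell at day 28 (medians -0.10, 0.15 and 0.31). Acan, which encodes aggrecan, had 10.97, 10.24, 8.77 and 9.00 at day 2 against 11.80, 11.49, 11.61 and 10.93 on the intact arrays. Only replicate 1 of day 2 overlapped the intact arrays, and the day 2 arrays spread more (SD 1.0) than the intact arrays (SD 0.37). Acan fell by 1.71 at day 2 (3.28-fold, adjusted p = 0.0024) and differed from intact by 0.07 at day 14 (adjusted p = 0.93) and 0.64 at day 28 (adjusted p = 0.3). The chondrocyte list mean of the same day 2 arrays was 8.23, 7.72, 6.64 and 7.12, and the part of cell loss in the fall was not tested. Hapln1, the link protein that fastens aggrecan to hyaluronan, fell by 2.05 at day 2 (adjusted p = 0.0069) and by 1.66 at day 14 (adjusted p = 0.038). Vcan, which encodes versican, rose by 0.61, 1.10 and 1.02 at days 2, 14 and 28 (adjusted p = 0.0089, 3e-04 and 0.00045), against 0.60, 1.25 and 1.12 for Adamts15. Has2, a hyaluronan synthase, rose by 1.21, 1.54 and 1.30 (adjusted p = 0.0022, 0.00085 and 0.0029).

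Of 7 genes for inhibitors and clearance, 2 rose and 3 fell at day 2, 3 rose and 2 fell at day 14, and 4 rose and 2 fell at day 28 (medians -0.35, 0.09 and 0.24). Timp3, the main tissue inhibitor of aggrecanases, had 10.78, 10.45, 10.19 and 10.29 at day 2, against 11.83, 11.99, 11.97 and 12.00 on the intact arrays. Every array of each day lay below every intact array, with 11.49, 11.38, 11.36 and 11.26 at day 14 and 11.61, 11.53, 11.57 and 11.48 at day 28. Timp3 fell by 1.52 at day 2 (2.86-fold, adjusted p = 2.2e-07), 0.57 at day 14 (adjusted p = 0.0021) and 0.40 at day 28 (adjusted p = 0.019). Timp4 fell by 1.30, 1.03 and 1.35 (adjusted p = 0.00018, 0.0028 and 0.00036), whereas Timp1, a weak inhibitor of most ADAMTS enzymes, rose by 1.02, 1.23 and 1.26 (adjusted p = 1.1e-05, 1.1e-05 and 5.1e-06). The rise of Adamts4 and Adamts1 was thus accompanied by lower Timp3 and higher Timp1 transcript on all 3 days. Lrp1, the endocytic receptor that clears aggrecanases, differed by 0.15 at day 2 (adjusted p = 0.21) and rose by 0.29 at day 14 (adjusted p = 0.026) and 0.32 at day 28 (adjusted p = 0.016). Grn, whose product progranulin binds ADAMTS7 and ADAMTS12, rose by 0.68, 0.35 and 0.31 (adjusted p = 6.9e-05, 0.02 and 0.036).

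**Figure D4:**
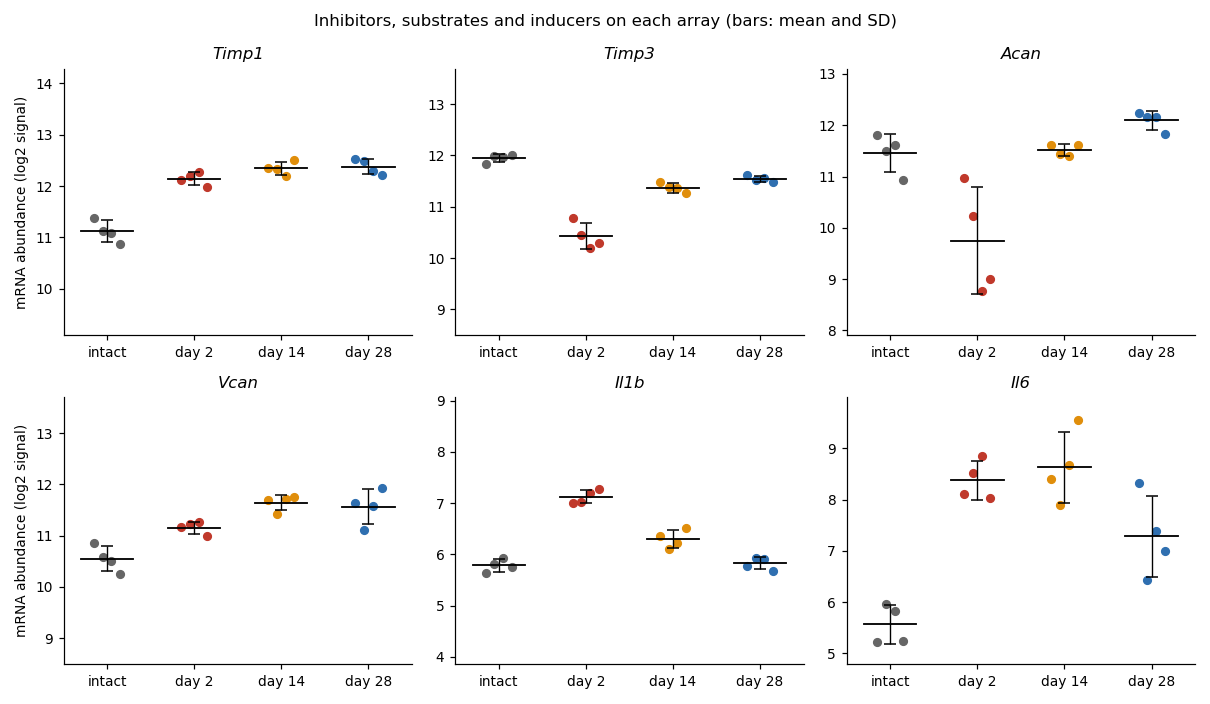
Log2 signal (vertical axis) of Timp1, Timp3, Acan, Vcan, Il1b and Il6 on each array of intact, day 2, day 14 and day 28 knees (horizontal axis). Points are arrays, 4 per group, and bars give the mean and SD. Timp3 is lowest at day 2, all Timp1 arrays after MIA lie above the intact arrays, and the day 2 arrays of Acan lie between 8.77 and 10.97.

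Among 8 genes for processing enzymes and cofactors, 2 rose and 3 fell at day 2, 1 rose and 2 fell at day 14, and 2 rose and 1 fell at day 28 (medians -0.19, 0.09 and -0.02). Pcsk6, which encodes the convertase PACE4 that activates aggrecanase precursors in human osteoarthritic cartilage, had 8.32, 8.25, 8.15 and 8.43 at day 2, against 9.85, 9.99, 9.92 and 10.06 on the intact arrays. The groups did not overlap, and the fall was 1.66 at day 2 (3.17-fold, adjusted p = 7.5e-07), 1.32 at day 14 (adjusted p = 2.4e-05) and 1.03 at day 28 (adjusted p = 0.00013). Sdc1, a cell-surface heparan sulphate proteoglycan, rose by 0.83, 0.92 and 0.88 (adjusted p = 0.00027, 0.00035 and 0.00044). Its relative Sdc4, which promotes activation of ADAMTS5 in mice, rose at day 28 alone, by 0.52 (adjusted p = 0.004). Mmp17, a membrane-anchored protease that trims ADAMTS4, fell by 0.52 at day 2 (adjusted p = 0.00033) and by 0.30 at day 14 (adjusted p = 0.029).

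Of 11 cytokine inducers and receptors, 5 rose and 1 fell at day 2, 4 rose and 1 fell at day 14, and 2 rose and 1 fell at day 28 (medians 0.37, -0.03 and 0.04). Il1b, a cytokine that induces ADAMTS4 in cultured chondrocytes, had 7.01, 7.03, 7.19 and 7.28 at day 2, against 5.64, 5.81, 5.93 and 5.76 on the intact arrays. At day 28 its 4 arrays, 5.78, 5.93, 5.91 and 5.68, lay within the range of the intact arrays. Both groups were dim, with means of 5.82 and 5.78 against a median brightness of the array of 6.62. Il1b rose by 1.34 at day 2 (2.54-fold, adjusted p = 3.8e-07) and 0.52 at day 14 (adjusted p = 0.0029), and differed by 0.04 at day 28 (adjusted p = 0.88). Il6 rose by 2.81, 3.06 and 1.72 (adjusted p = 6e-05, 1e-04 and 0.0065), with a spread at day 28 of 6.44 to 8.32 over the arrays. Its intact mean, 5.57, was also dim. Il1r1, the signalling receptor of interleukin-1, rose by 0.68 at day 2 (adjusted p = 0.0032), and Osmr, the receptor of oncostatin M, by 0.69, 0.65 and 0.43 (adjusted p = 0.00019, 0.00085 and 0.013). The day 2 rise of Il1b coincided with that of the macrophage markers, and their part in it was not tested. Whether any of these cytokines or receptors acted on the ADAMTS members was not tested.

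Among 8 transcription factors known to act upstream of ADAMTS genes in other systems, 1 rose and 4 fell at day 2, 3 rose and 1 fell at day 14, and 3 rose and 1 fell at day 28 (medians -0.32, 0.26 and 0.20). Sox4, which drives ADAMTS4 and ADAMTS5 expression in mouse chondrocytes together with Sox11, was higher than intact by 0.60 at day 14 (adjusted p = 0.0012) and 0.83 at day 28 (adjusted p = 8.1e-05). Sox11 fell by 0.59 at day 2 (adjusted p = 0.0023). Hif1a, the oxygen-regulated factor, rose by 0.37 at day 14 (adjusted p = 0.012) and 0.60 at day 28 (adjusted p = 0.00044), and Hes1, a Notch target, fell by 0.52 at day 2 (adjusted p = 5e-04). Of 4 other proteases that degrade aggrecan, 1 rose at day 2, 3 at day 14 and 4 at day 28, with 0 falling (medians 0.26, 1.24 and 1.32). Mmp3 rose by 1.52, 2.29 and 1.82 (adjusted p = 0.00039, 4.9e-05 and 0.00022), on each day with Adamts4. Mmp14 rose by 1.46 at day 14 (adjusted p = 1.5e-06) and 1.47 at day 28 (adjusted p = 5.7e-07), and Mmp13, the main collagenase of osteoarthritic cartilage, by 1.02 (adjusted p = 0.0078) and 1.18 (adjusted p = 0.003), the days on which Adamts7 was called. Htra1 rose by 0.52 at day 28 (adjusted p = 0.0038).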

How the data were processed

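Total RNA of rat knee tissue was hybridised to 16 arrays, 4 per group, each a pool of 2 animals per the methods but with 1 animal number per the labels. The log2 signals that the authors deposited for each probe set were made per the labels by RMA in oligo 1.36.1 (background subtraction, quantile normalisation and summarising of probes), while the methods name GeneChip Operating Software. These log2 values were used unchanged and without a filter. Arrays have no depth, and their number limits the precision. Groups came from the labels and replicate numbers from the titles, which differ from those in the descriptions at day 2. Scan batches are not given in the sources used here. Symbols were taken for the 18511 probe sets with exactly 1 symbol, and for 18394 of them the gene identifier gave the symbol of the reference table, with 0 differing.

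In R 4.3.3 with limma 3.58.1, 1 mean per group was fitted to all 36685 probe sets. eBayes (prior degrees of freedom 2.86) gave moderated statistics for 6 pairs of groups and an F-test over the 3 days against intact. Adjustment of p was made by the procedure of Benjamini and Hochberg over all probe sets with a threshold of 0.05. The code was tested on simulated data. Plots were drawn with matplotlib 3.10.9, and promoters came from RefSeq tables (GRCr8).

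The members and all gene lists were chosen with earlier results of these data known, and lists were written from general knowledge. All members are named. Per family or pathway list the up to 4 genes with the largest difference among those called are named, with Acan, Vcan, Timp3 and Lrp1. For the 4 members with the largest range of group means, the 3 genes with the smallest root mean square difference are named. Alternatives covered scaling, array weights, a trended and robust eBayes, the filter on dim probe sets, a replicate block, the methods' t-test, muscle and marrow covariates and leaving out arrays. The t-test was taken here in the form of Welch.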

Additional observations from a re-analysis of the deposited data

Results flagged for a closer look

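In Adamts9, replicate 4 of MIA day 2 lay far from the other 3 arrays of its group, at 9.72 against 9.30, 9.31 and 9.33. Of 32 groups of 4 arrays examined, this was the only one in which the gap passed Dixon's limit, and chance flags about 1 in 20 groups. Without that array the day 2 difference from intact was -0.05, and it was not called with or without it.

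The difference from intact was larger or smaller on 1 day than on another, by a direct test between the days, in 5 members. Adamts17 was higher at day 14 than at day 2 by 1.08 (limma, adjusted p = 1.4e-05) and at day 28 than at day 2 by 1.05 (adjusted p = 8.3e-06), and Adamts12 by 0.94 (adjusted p = 5.7e-05) and 0.73 (adjusted p = 0.00033). Adamts7 was higher at day 14 than at day 2 by 0.53 (adjusted p = 0.0029) and at day 28 than at day 2 by 0.76 (adjusted p = 0.00011). Adamts15 was higher at day 14 than at day 2 by 0.65 (adjusted p = 0.035), a call lost in 11 of 27 alternatives. Adamts9 differed at day 28 from day 2 by -0.42 (adjusted p = 0.0048).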

How the results depend on the processing

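Each comparison of the members with intact was repeated under 27 alternatives, 11 settings and 16 omissions of a single array. No called difference changed direction. Called differences stayed past the threshold in 143 cases under the settings and lost it in 11, and with an array left out kept it in 217 and lost it in 7. The rises of Adamts4 at all days, of Adamts1 at days 2 and 28, of Adamts7 at day 28 and of Adamts15 at day 14 and the day 2 falls of Adamts12 and Adamts17 were called under all 27. With the methods' t-test and Benjamini-Hochberg adjustment, the members upregulated at day 14 numbered 2 (Adamts4 and Adamts15, with an adjusted p of 0.052 for Adamts1 and 0.051 for Adamts7), those at day 28 numbered 3 (without Adamts15), and those lower at day 28 than at day 2 numbered 0. The study's limits (p under 0.0001 and over 2-fold) were applied here to a Welch t-test, without its ANOVA step and permutations. The study's text does not name the form of its t-test, so these counts need not be those of its own rule. They were 1 up (Adamts1) and 0 down at day 2, 1 up (Adamts4) at day 14 and 0 up and 0 down at day 28. The count of members downregulated at day 28 was 0 with the marrow covariate and 0 without the 4 arrays with the highest skeletal muscle signal (day 14 replicates 3 and 2, intact replicates 3 and 2; an alternative added after seeing the data), and 0 to 1 with single arrays left out (0 without day 28 replicate 1). Members higher at day 14 than at day 2 numbered 3 to 4 with single arrays left out, and 3, without Adamts15, with arrays centred on their medians, the methods' t-test, the marrow covariate or without the 4 arrays. Some differences near 0 that were not called changed sign. For Adamts12 at day 28 the value was -0.03 with cyclic loess and -0.19 with the marrow covariate, and -0.01 to 0.15 with an array left out. For Adamts17 at day 14 it was -0.05 with the muscle and -0.06 with the marrow covariate (-0.04 to 0.07 with an array left out), and at day 28 it was 0.03 with arrays centred on their medians, 0.02 with the muscle covariate and 0.07 without the 4 arrays (-0.06 to 0.04). For Adamts5 it was -0.21 to 0.06 at day 14 and -0.25 to 0.02 at day 28 with an array left out. For Adamts7 at day 2 it was -0.05 without the 4 arrays, and for Adamts9 at day 2 -0.07 with cyclic loess (-0.05 to 0.09 with an array left out). The cause of these shifts was not tested. The F-test called 7 members, and 6 with the marrow covariate. As a set, same-numbered arrays did not deviate together (24 pairs, correlation -0.36 to 0.46, median 0, against -0.30 to 0.33 for 72 other pairs). The pair at 0.46 was replicate 2 of day 14 and of day 28, which had the highest marrow list means of their groups (9.62 and 9.12). With the replicate number as a replicate block the counts were 3 up and 2 down at day 2, 4 up and 0 down at day 14 and 4 up and 1 down at day 28, and 4 were higher at day 28 than at day 2. Other probe sets of a member could not be tried, since each had 1.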

Other observations

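The hyaluronan synthases, which make the polymer to which aggrecan and versican are anchored, moved apart at day 2. Has1, named here after its values were seen, had a mean of 7.36 ± 0.25 at day 2 against 8.35 ± 0.19 in intact knees (SD, n = 4 arrays each) and fell by 0.99 (limma, adjusted p = 0.0017), while Has2 had 10.83 ± 0.48 against 9.61 ± 0.065 and rose by 1.21 (adjusted p = 0.0022). At day 14 the difference from intact was 0.24 for Has1 (adjusted p = 0.47) and 1.54 for Has2 (adjusted p = 0.00085). Cd44, the hyaluronan receptor, also named after its values were seen, rose by 0.51, 0.57 and 0.77 at days 2, 14 and 28 (adjusted p = 0.0013, 0.0014 and 0.00011). Timp2, likewise, fell by 0.46 at day 2 (adjusted p = 0.00018) and rose by 0.24 at day 28 (adjusted p = 0.03), a course shared in its directions by the procollagen N-proteinases Adamts2 and Adamts14.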
